A study of Mus musculus with 2 samples.

Results

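The proteasome subunit genes were taken as the protein-coding genes of GENCODE M21 whose symbol is Psm, one of the letters a, b, c, d, e or g, and a number. This rule, which uses no measured value, gave 47 of 21938 genes, on 16 chromosomes. By role they were divided into 3 immunoproteasome subunits (Psmb8, Psmb9 and Psmb10), 21 regulatory subunits (17 of the 19S particle and 4 activators), 7 assembly chaperones, 2 tissue-restricted core subunits (Psma8 and Psmb11) and 14 subunits of the standard core (Psma1 to Psma7 and Psmb1 to Psmb7). The symbols Psmf1, Psme2b and Psmc3ip fall outside the rule.

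H3K27ac, an acetylation of histone H3 found at active promoters and enhancers, was profiled by chromatin immunoprecipitation and sequencing in unstimulated bone marrow-derived macrophages of the C57BL/6J mouse strain. The series holds a single group of 2 biological replicates, whose labels carry the same donor entry, so their spread may leave out differences between animals. Per the labels, sex was not recorded and neither stage nor age is known. There were 29543 peaks in the list of replicate 1, 29345 in that of replicate 2 and 32877 in the replicated list, which the authors made from both libraries. The cell type label was met by the peaks: 8 of 8 macrophage genes (Spi1, Csf1r, Adgre1, Itgam, Cd68, Lyz2, Fcgr1 and Mertk) had a promoter peak in each replicate, against 0 of 3 genes each for T cells, B cells, neutrophils, fibroblasts and epithelial cells. With a single group of cells, and with genes that are not replicates of a condition, no test was made. All differences between gene classes below describe these 2 libraries.

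The proteasome is the protease complex that degrades proteins tagged with ubiquitin. Its barrel-shaped 20S core is built from rings of alpha and beta subunits, of which Psmb5, Psmb6 and Psmb7 encode the proteolytic ones, and it is opened by the 19S particle, whose ATPases unfold the substrate, or by activators of the Psme family. In immune cells, and in other cells exposed to interferon gamma, Psmb8, Psmb9 and Psmb10 take the places of Psmb5, Psmb6 and Psmb7 in newly assembled cores, and the immunoproteasome formed in this way supplies many of the peptides presented on MHC class I molecules.

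A promoter peak is a peak that overlaps the 1 kb on either side of any annotated start of the gene, and a gene with such a peak in each replicate is called marked. Of the 47 proteasome genes, 43 (91.5%) were marked, against 39.4% of all protein-coding genes (8633 of 21938). Replicate 1 had a promoter peak at 43 of the genes and replicate 2 at 45, where the shares over all genes were 40.5% and 41.6%, and the replicated list had one at 45, against 43.8% of all genes. By class, 3 of 3 immunoproteasome, 20 of 21 regulatory, 6 of 7 chaperone, 0 of 2 tissue-restricted and 14 of 14 standard core genes were marked. The promoter windows of proteasome genes had a median ratio of observed to expected CpG of 0.734, which was above the 0.631 of all genes and below the 0.811 of marked genes. Of 28 proteasome genes with a ratio of at least 0.6, 27 were marked, against 62.6% of all genes above that ratio, and the part of CpG content in the counts was not tested. Another protein-coding gene starts within 1 kb of a start of 14 of the 47 genes, so a peak there cannot be given to either gene.

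The 3 immunoproteasome genes carried promoter peaks that were high in their lists. The height of a peak is given as the authors' deposited fold, a linear ratio that is not scaled between lists, and its percentile is its place by fold among all peaks of the same list, with 100 for the highest. Psmb9, which encodes the subunit that replaces Psmb6, had folds of 24.8 in replicate 1, 26.8 in replicate 2 and 28.0 in the replicated list, where it stood at percentile 95.3. Psmb10, whose product replaces that of Psmb7, had folds of 24.6, 25.6 and 26.0 in the same lists and stood at percentile 94.2. Psmb8, whose product replaces that of Psmb5, was the lowest of them, with folds of 14.5, 18.3 and 17.9 and percentile 86.8. A single peak covered the 5′ end of each of the 3 genes in each replicate list and in the replicated list, where it was 2394 bp wide at Psmb9, 1987 bp at Psmb10 and 2033 bp at Psmb8.

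Psmb8 and Psmb9 lie close together on chromosome 17, with 9957 bp between their 5′ ends and a separate peak at each. Psmb8 spans chr17:34197721-34201454 (forward strand) of GRCm38 and Psmb9 spans chr17:34181987-34187764 (reverse strand). The Psmb9 peak also covers a start of Tap1, which encodes a subunit of the peptide transporter for MHC class I loading and is transcribed in the opposite direction. Psmb10 lies apart from them, at chr8:105935735-105938444 (reverse strand).

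Promoter sequence of these genes was taken from RefSeq (GRCm38.p6) around starts that lay inside the peak of each list, and capitals mark the short words that were searched for. The Psmb8 stretch, at chr17:34198088-34198117 on the forward strand, holds a STAT word (TTCNNNGAA), the kind of site bound by factors downstream of interferon receptors. The Psmb9 stretch, at chr17:34187321-34187350 on the reverse strand, holds a CCAAT box read from the other strand. The Psmb10 stretch, at chr8:105938415-105938642 on the reverse strand, holds an E-box (CACGTG). Each is written 5′ to 3′.
Psmb8: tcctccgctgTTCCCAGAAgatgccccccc
Psmb9: gcgcagccgctgATTGGaaagccgagcccc
Psmb10: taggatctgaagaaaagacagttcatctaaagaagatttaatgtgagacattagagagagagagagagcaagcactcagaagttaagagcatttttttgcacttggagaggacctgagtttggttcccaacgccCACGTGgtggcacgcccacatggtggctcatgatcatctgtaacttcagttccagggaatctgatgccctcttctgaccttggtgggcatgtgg

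The standard subunits that the immunoproteasome subunits replace had lower percentiles than their counterparts in every list. Psmb6, which carries the caspase-like activity, had folds of 15.5 in replicate 1, 17.2 in replicate 2 and 13.6 in the replicated list (percentile 79.3). The percentile of Psmb9 was above that of Psmb6 by 10.99 points in replicate 1, 9.85 in replicate 2 and 16.1 in the replicated list. In the replicates the Psmb6 values are those of a peak downstream of its start. Its peaks across the 5′ end were lower, at percentile 76.1 in replicate 1 and 69.4 in replicate 2. Psmb5, the chymotrypsin-like subunit, had folds of 12.9, 9.22 and 11.9 in the same lists (percentile 75.1 in the replicated list). Psmb8 stood above Psmb5 by 3.81, 23.7 and 11.6 points, so this gap was small in replicate 1 and depended on the replicate. Psmb7, the trypsin-like subunit, had the lowest promoter peak of the standard core, with folds of 3.10, 4.69 and 3.80 (percentile 23.7 in the replicated list), and Psmb10 stood above it by 91.4, 67.4 and 70.5 points. The gap between Psmb10 and Psmb7 was the widest of the 3 pairs in each list.

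**Figure D1:**
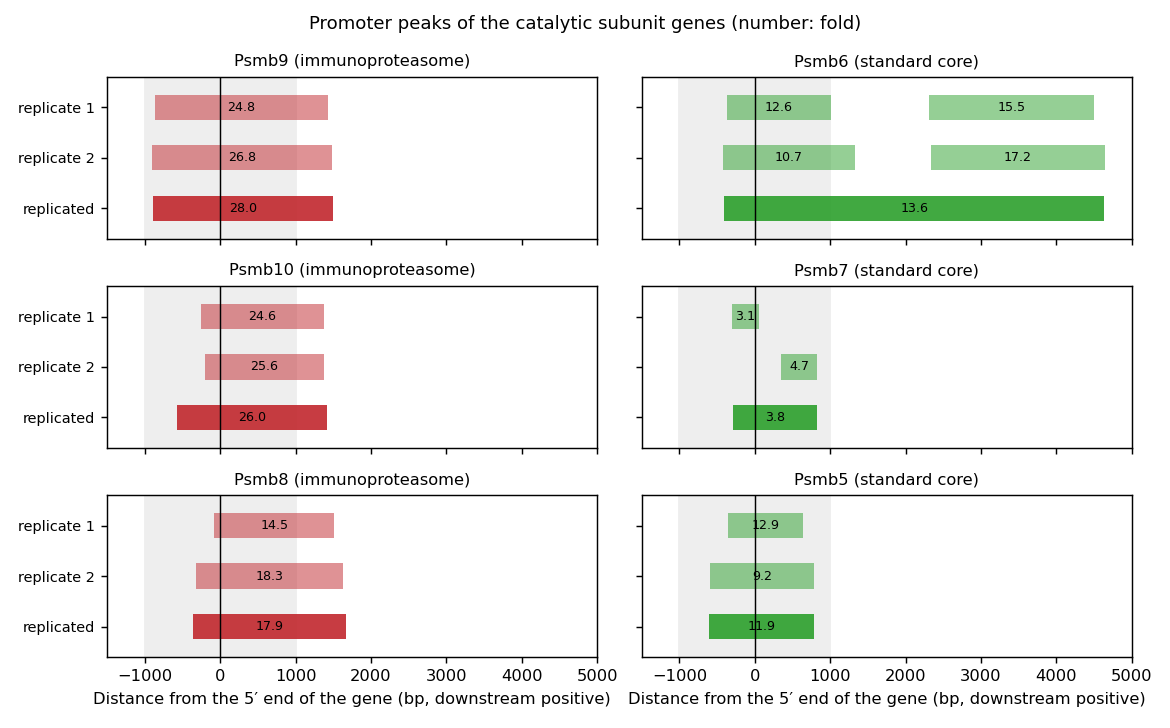
Promoter peaks of the immunoproteasome genes (left, red) and of the standard genes they replace (right, green), as bars along the distance from the 5′ end in bp, for the replicate 1, replicate 2 and replicated lists, with the fold of each peak as a number and the 1 kb windows around the 5′ end in grey. Each immunoproteasome gene has a single peak across its 5′ end, with folds of 14.5 to 28.0, while Psmb6 has 2 peaks in each replicate that the replicated list joins, and the Psmb7 peaks of the replicates, with folds of 3.10 and 4.69, do not overlap.

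The peaks of the standard catalytic genes also differed in place. At Psmb6 (chr11:70525367-70527858 (forward strand)), each replicate had a peak across the 5′ end, with folds of 12.6 and 10.7. Each also had a higher peak that began 2315 bp downstream in replicate 1 and 2343 bp downstream in replicate 2 and ended beyond the gene. The replicated list joined both peaks into a region of 5041 bp whose summit lay 3851 bp downstream of the 5′ end. The width and fold of this region are thus not those of the peak at the start. At Psmb7 (chr2:38588036-38644087 (reverse strand)), the replicate 1 peak of 349 bp lay across the 5′ end and the replicate 2 peak of 468 bp lay 354 bp downstream of it. Each of them was weak in its list, at percentiles 2.37 and 26.8. At Psmb5 (chr14:54614119-54618022 (reverse strand)) a single peak across the 5′ end was 996 bp wide in replicate 1 and 1387 bp in replicate 2.

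As a class, the immunoproteasome genes had a median percentile of 94.2 in the replicated list (range 86.8 to 95.3), against 64.6 for regulatory genes (25.2 to 98.4), 49.8 for chaperones (31.8 to 79.7), 66.0 for the standard core (23.7 to 89.97) and 73.9 for all marked genes. These class medians include Psmd11 and Psmg2, which had a peak in this list and were not marked, and over all genes with a peak in this list the median was 70.1. Over the replicate lists these medians averaged 93.98 ± 0.315 for immunoproteasome, 61.4 ± 1.28 for regulatory, 62.0 ± 2.58 for standard core and 69.97 ± 0.861 for all marked genes (SD, n = 2). The gap between the immunoproteasome median and the others was larger than this spread, but the median was that of Psmb10 in each replicate. Its SD is thus that of a single gene and leaves out Psmb8, which stood at 80.8 in replicate 1 and 86.7 in replicate 2. The SD does not measure the spread among genes, so it cannot judge a gap between classes. The class has only 3 genes and the ranges overlap. Psma6 of the standard core, and Psmc3, Psmd8, Psmd13 and Psme2 of the regulatory class, stood above Psmb8 in each of the 3 lists. In replicate 1 so did Psma1, Psmd1 and Psmb6. Psmb6 did so by its peak downstream of the start, and its peak across the 5′ end (percentile 76.1) was below that of Psmb8 (80.8). In the upper 10% of the replicated list were 2 of 3 immunoproteasome, 4 of 21 regulatory, 0 of 7 chaperone and 0 of 14 standard core genes, in all 6 of 45 proteasome genes with a peak, against 18.8% of all genes with one. In the lower 50% were 0, 4, 4 and 2 genes of the same classes, in all 10 of 45, against 25.7%.

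**Figure D2:**
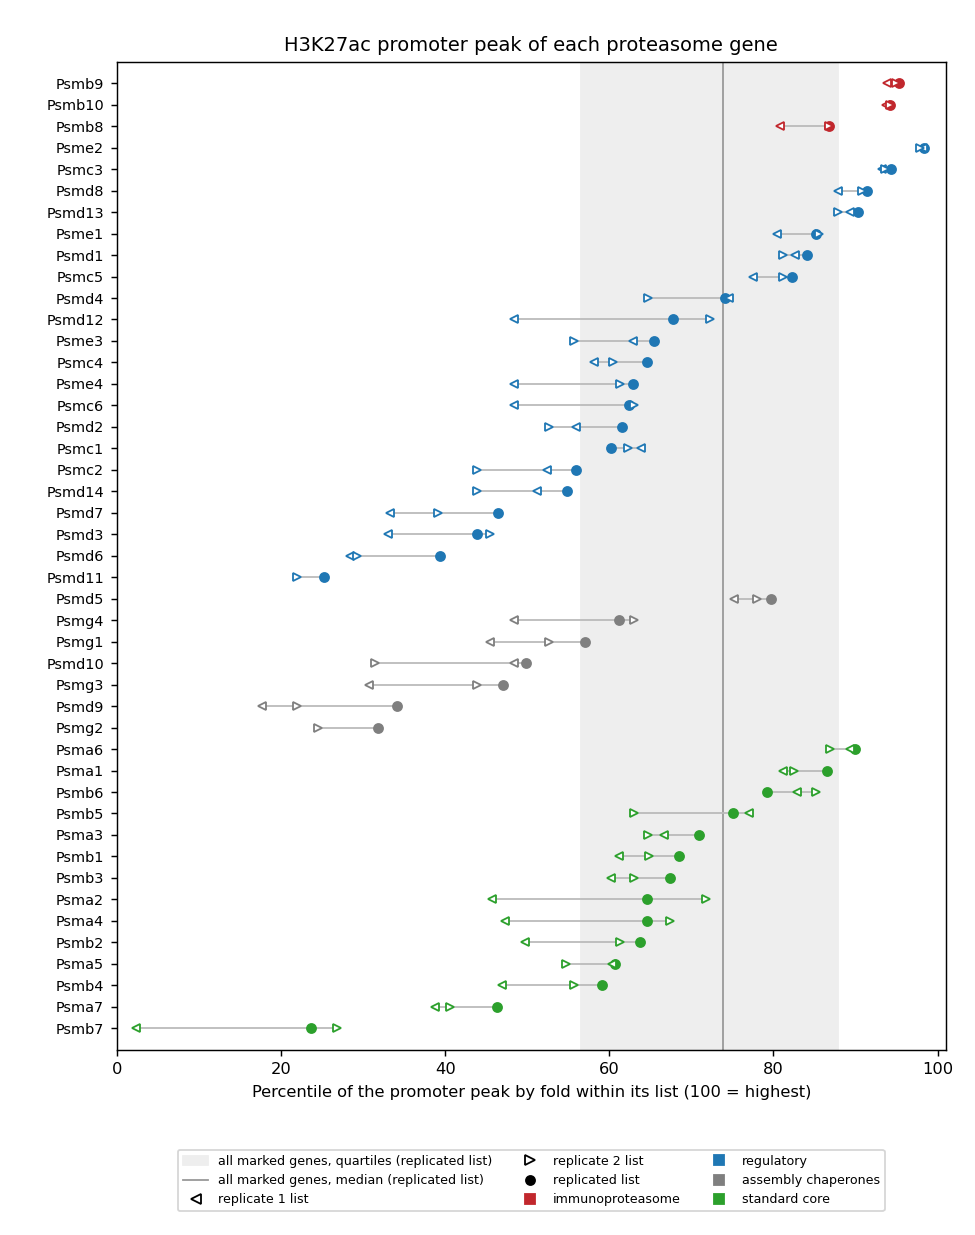
Percentile by fold of the promoter peak of each of the 45 proteasome genes with a peak in the replicated list, within the replicate 1 list (left-pointing triangles), the replicate 2 list (right-pointing triangles) and the replicated list (circles), grouped by class from immunoproteasome to standard core, with the median and quartiles of all marked genes in the replicated list (73.9, and 56.5 to 87.9) as a line and a grey band. Psmb9 and Psmb10 lie right of the band, as do Psme2, Psmc3, Psmd8 and Psmd13 of the regulatory class and Psma6 of the standard core, and most other circles lie left of the line.

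Among the regulatory genes, the activator gene Psme2 and the ATPase gene Psmc3 led. Psme1 and Psme2 encode the subunits of PA28, the activator that is induced together with the immunoproteasome by interferon gamma, and their 5′ ends lie 12990 bp apart on chromosome 14. Psme2 had folds of 33.9 in replicate 1, 33.7 in replicate 2 and 36.6 in the replicated list, where its percentile of 98.4 was the highest of all proteasome genes and its peak was 1720 bp wide. That peak also covers a start of Rnf31, which encodes the catalytic subunit of the linear ubiquitin chain assembly complex. Psme1 had folds of 14.3, 17.4 and 16.8 (percentile 85.2 in the replicated list) and no other gene's start within 1 kb. The other activator genes stood lower: the percentile was 65.4 for Psme3, which encodes a nuclear form of PA28, and 62.8 for Psme4, which encodes the nuclear activator PA200.

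The sequence around the start of Psme1 is shown because, unlike the windows of Psmb8, Psmb9 and Psmb10, it holds the interferon response word. It was chosen after the values were seen, and the 2 windows of Psme2 hold none of the words searched for. The stretch lies at chr14:55578493-55578522 on the forward strand, and the capitals mark the word, read from the other strand, which begins 9 bases after the RefSeq start.
Psme1: cgagctgtgcTTTCGCTTTCccttcccgct

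In the 19S particle, the 6 ATPase genes had a median percentile of 61.0 in replicate 1, 62.7 in replicate 2 and 63.5 in the replicated list, and the other genes had medians of 53.6, 52.6 and 61.6 in the same lists. The ATPase median was thus higher in each replicate, with a smaller gap in the replicated list. Without Psmd11, which was not marked, the other genes had medians of 58.7 in replicate 2 and 64.7 in the replicated list, where theirs was then the higher. Psmc3, an ATPase of the ring that threads substrates into the core, had folds of 23.9, 24.8 and 26.2 (percentile 94.3 in the replicated list). Psmd8, a structural subunit of the lid, had folds of 18.6, 21.6 and 22.2 (percentile 91.4), from a peak that began 238 bp downstream of the 5′ end in the replicated list and did not cover it. Psmd13, another lid subunit, had folds of 19.8, 19.1 and 21.1 (percentile 90.3) and has a start of Sirt3, a mitochondrial deacetylase gene, within 1 kb. All 3 were high in each replicate.

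The lowest regulatory genes were lid subunits. Psmd11 had no promoter peak in replicate 1, where its nearest peak lay 43972 bp away, and a weak one in replicate 2 (fold 4.36) and in the replicated list (fold 3.90, percentile 25.2, 417 bp wide). Psmd6 had folds of 4.82, 4.86 and 5.01 (percentile 39.4 in the replicated list), and Psmd3 had folds of 5.16, 6.37 and 5.47 (percentile 43.9). At Psmd3 each replicate had a peak on either side of the 5′ end. The upstream one was the higher in replicate 1 (fold 5.16 against 4.47), and the downstream one in replicate 2 (fold 6.37 against 5.36). Psmd14, the lid enzyme that removes ubiquitin from substrates, had percentile 54.8, and Psmd4, a receptor for ubiquitin chains, had percentile 74.1.

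The assembly chaperones, which help to build the core and the base of the 19S particle and are not part of the finished complex, stood below the other classes that carried peaks. Psmd5 was the highest of them, at percentile 79.7, with a peak that began 3155 bp downstream of the 5′ end, at another of its starts. Psmd9 was marked only through weak peaks near an internal start, with folds of 4.13 in replicate 1 and 4.36 in replicate 2. They began 58909 and 58796 bp downstream of its 5′ end. Psmg2, which encodes a chaperone of the alpha ring, had no promoter peak in replicate 1, where its nearest peak lay 56001 bp away, and a weak one in replicate 2 (fold 4.52) and in the replicated list (fold 4.36). The read depth is unknown, and where no peak was listed the signal was too low for the authors' calling, which does not show that the mark was absent.

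The tissue-restricted core genes had no promoter peak in any of the 4 deposited lists. Psma8 encodes the alpha subunit of the testis form of the proteasome, and its nearest peak lay at 22631 bp in replicate 1 and at 23752 bp in replicate 2. Psmb11 encodes the beta subunit of the thymus form. Its 5′ end lies 3411 bp from that of Psmb5, and its nearest peak, at a distance of 3056 bp in replicate 1 and 2813 bp in replicate 2, was the Psmb5 promoter peak.

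In the standard core, the 7 alpha subunit genes had a median percentile of 60.3 in replicate 1, 67.4 in replicate 2 and 64.6 in the replicated list, and the 7 beta subunit genes had medians of 60.2, 63.0 and 67.3, so neither was higher throughout. The 3 highest were Psma6, Psma1 and Psmb6, all subunits of the 20S barrel, where the Psmb6 value is that of the joined region described above. Psma6 had folds of 19.8 in replicate 1, 18.4 in replicate 2 and 20.8 in the replicated list (percentile 89.97), and Psma1 had folds of 14.6, 15.6 and 17.7 (percentile 86.5). The 3 lowest were Psmb7, Psma7 and Psmb4. Psma7 had folds of 5.68, 5.87 and 5.75 (percentile 46.3), and Psmb4 had folds of 6.54, 7.88 and 7.70 (percentile 59.1). Apart from Psmb7, the lowest of the class by far in replicate 1, each standard core gene stood at percentile 38.8 or higher in each replicate.

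The Psma6 peaks lay at an internal start and not at the annotated 5′ end. The replicated list had a peak from 13338 to 14463 bp downstream of the 5′ end and another from 14539 bp downstream, across a RefSeq start that lies 14603 bp downstream of the 5′ end, and no peak over the RefSeq start at the 5′ end. The promoter of that internal start is shown as the one of the highest standard core gene, at chr12:55398575-55398804 on the forward strand, and its capitals mark a kappa-B word.
Psma6: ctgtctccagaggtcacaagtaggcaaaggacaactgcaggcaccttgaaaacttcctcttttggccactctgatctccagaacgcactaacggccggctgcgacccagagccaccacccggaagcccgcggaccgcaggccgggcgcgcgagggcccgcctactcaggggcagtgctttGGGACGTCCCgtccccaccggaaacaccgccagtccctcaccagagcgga

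Promoter peaks of the immunoproteasome genes had a median width of 2033 bp in the replicated list, against 1098 bp for regulatory, 664 bp for chaperone and 1267.5 bp for standard core genes, 1247 bp for all marked genes and 1137 bp for all genes with a peak in that list. Over the replicate lists the medians averaged 1792.5 ± 217 bp for immunoproteasome, 917.5 ± 31.8 bp for regulatory, 1092.5 ± 164 bp for standard core and 1064 ± 73.5 bp for all marked genes (SD, n = 2). The quartiles of all marked genes in the replicated list were 797 and 2071.5 bp. Psmb8 (2033 bp) and Psmb10 (1987 bp) thus lay inside the quartiles, and Psmb9 (2394 bp) lay above them. The widest peaks of the family were outside the immunoproteasome class. They belonged to Psmb6 (5041 bp), to Psmd1, a scaffold subunit of the 19S base (4477 bp), and to Psmb1, a beta subunit without proteolytic activity (3089 bp). The Psmd1 peak lay between 58705 and 63181 bp downstream of the 5′ end, near an internal start, while the Psmd1 peak across the 5′ end was 1677 bp wide with a fold of 15.9. The Psmb1 peak also covers a start of Tbp, which encodes the TATA-binding protein.

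**Figure D3:**
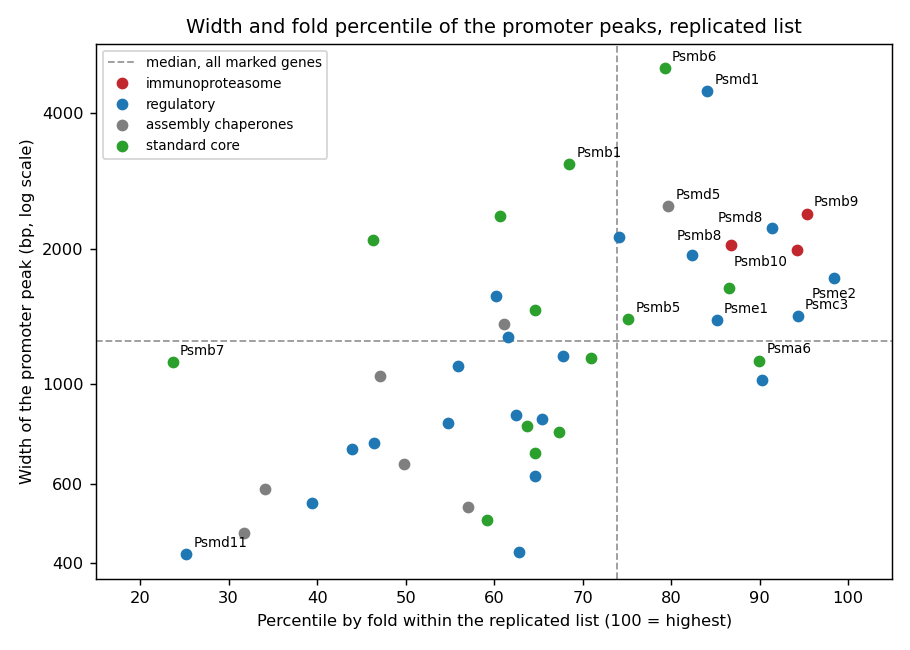
Width in bp on a log scale against percentile by fold, for the promoter peak of each of the 45 proteasome genes in the replicated list, coloured by class, with dashed lines at the medians of all marked genes (1247 bp and 73.9). The 3 immunoproteasome genes lie together in the upper right, at 1987 to 2394 bp and percentiles 86.8 to 95.3. Psmd8 of the regulatory class lies among them, at 2226 bp and percentile 91.4. The wider peaks of Psmb6, Psmd1, Psmb1 and Psmd5 lie at lower percentiles than Psmb8.

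The peak ran across the annotated 5′ end in 30 of 42 proteasome genes with a peak within 1 kb of it in the replicated list (71.4%), against 49.5% of all such genes. By class this was the case for 3 of 3 immunoproteasome, 12 of 21 regulatory, 4 of 5 chaperone and 11 of 13 standard core genes. In the replicates the shares were 57.5% and 69.0% of the proteasome genes, against 42.7% and 48.9% of all genes. More than 1 promoter peak was present in the replicated list at 0 of 3 immunoproteasome, 10 of 21 regulatory, 0 of 7 chaperone and 6 of 14 standard core genes, in all 16 of 45, against 48.6% of all genes with a promoter peak.

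By the main rule, proteasome genes had a lower mean number of distal peaks than marked genes and about the same mean as all protein-coding genes. Distal peaks were counted as replicate 1 peaks that a replicate 2 peak overlaps, over 1 kb from every protein-coding start and within 25 kb of the 5′ end. The immunoproteasome genes had none, regulatory genes had a mean of 0.571 (8 of 21 genes with any), chaperones 0.286 (1 of 7) and the standard core 0.5 (6 of 14). In all, 16 of the 47 genes had at least 1 (34.0%, mean 0.468), against 45.7% of all marked genes (mean 0.913) and 26.4% of all protein-coding genes (mean 0.495). Less of the sequence around the immunoproteasome genes could hold a distal peak by this rule. The bases over 1 kb from every start made up 68.3% of the 50 kb around them on average, against 77.3% for regulatory, 83.8% for standard core and 83.3% for all marked genes, and the part of this in the counts was not tested.

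The count of 0 at the immunoproteasome genes held for peaks found in each replicate, and the order of the classes turned round in the replicated list, where the means were 1.00 for immunoproteasome, 0.810 for regulatory and 0.714 for standard core genes, against 1.12 for marked genes and 0.621 for all genes. The added peaks were weak. Replicate 1 alone had a peak 15983 bp from Psmb9 (fold 4.13), replicate 2 alone had a peak of fold 3.18 within 25 kb of both Psmb8 and Psmb9, and the replicated list had peaks of fold 3.46 near Psmb9 and of fold 2.505 near both genes. Psmb10 had no distal peak in any of these lists.

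The most distal peaks of any proteasome gene were 2, at Psma3, Psmc1, Psmc4, Psmc6, Psmd4 and Psmd9. Of the ATPase genes, 4 of 6 had at least 1 (mean 1.17), and of the other 19S genes 2 of 11 (mean 0.273), against the 45.7% (mean 0.913) of marked genes given above. Near Psmc6, a peak 3248 bp upstream of the 5′ end reached folds of 12.2 and 13.2 in the replicates, and a lower one lay 7318 bp upstream (fold 5.16 in replicate 1). Both Psmc4 distal peaks were weak, with folds of 4.82 and 4.99 in replicate 1, and lay 3086 and 3800 bp upstream. In replicate 1 the distal peaks had folds of 9.83 and 6.54 at Psmc1, 3.79 and 11.4 at Psmd4 and 3.61 and 8.09 at Psmd9. Those of Psmd9 were counted around a 5′ end that had no peak within 1 kb. At Psma3, an alpha subunit gene, peaks lay 4339 bp upstream (fold 15.3) and 23124 bp downstream (fold 17.8) in replicate 1. Both were higher there than the promoter peak of Psma3 itself (fold 9.81). The highest distal peak near any of the genes was 19458 bp upstream of Psme1, with folds of 25.8 and 25.1. A distal peak was counted for every gene within reach and is not assigned to it.

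**Figure D4:**
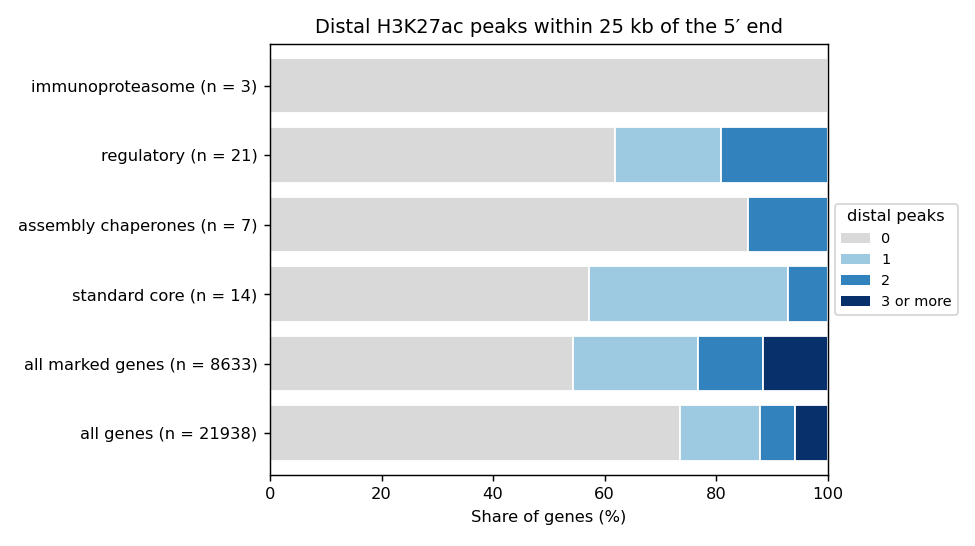
Share of genes in percent with 0, 1, 2 or at least 3 distal H3K27ac peaks found in each replicate within 25 kb of the 5′ end, for the immunoproteasome, regulatory, chaperone and standard core genes, all marked genes and all protein-coding genes. The immunoproteasome bar holds only genes with 0, no proteasome class holds a gene with 3 or more, and 11.7% of all marked genes do.

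The replicates differed somewhat more at proteasome genes than at marked genes in general. The median absolute difference in percentile was 5.18 points for the proteasome genes and 3.69 for all marked genes, and 12 of 43 proteasome genes (27.9%) differed by more than 10 points, against 19.1% of marked genes. The percentile was higher in replicate 2 for 29 of 43 marked proteasome genes (67.4%), against 56.5% of all marked genes, with a median signed difference of 2.29 points for the proteasome genes and 0.611 for all marked genes. Psma2, which encodes an alpha subunit, differed most, at percentile 45.7 in replicate 1 and 71.8 in replicate 2. The largest difference in the opposite direction was that of Psmd10, a chaperone of the 19S base also called gankyrin, at 48.4 in replicate 1 and 31.4 in replicate 2. The highest peaks of the replicates did not overlap at Psmb7, Psmd1, Psmd2 and Psmd3, which are 9.30% of the marked proteasome genes, against 6.73% of all marked genes.

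Genes that work with the proteasome were described by the same rule. Of 15 genes of class I antigen processing and interferon gamma signalling, 15 were marked, with a median percentile of 80.9 in the replicated list. B2m, the light chain of class I molecules, had a fold of 32.9 there, and Tap1, which shares the Psmb9 peak, 28.0. Irf1, an interferon-induced transcription factor gene, had a fold of 10.9. Of 17 proteasome cofactors 14 were marked (median percentile 73.8 over those marked), among them Pomp, the maturation factor of the core (fold 13.7), and not Psmf1, Adrm1 or Ube3c. Of 10 regulators of proteasome genes 7 were marked (median 88.96 over those marked), including Nfe2l1, which encodes the factor that raises proteasome gene transcription when the proteasome is inhibited (fold 22.3), and its dimer partner gene Mafg (fold 43.1). Ngly1, Nfyb and Maff were not. Of these cofactors and regulators that were not marked, all but Maff had a weak peak in the replicated list. The folds there were 3.15 for Psmf1, 4.40 for Adrm1, 4.08 for Ube3c, 4.64 for Ngly1 and 4.45 for Nfyb. The background for the counts of marked genes is the 39.4% of all genes that were marked, and 73.9 is the median percentile of all marked genes.

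Promoter windows of 39 proteasome genes were matched in RefSeq, from 250 bases before to 50 bases after each start, and 9 short words were searched for on both strands. Psma8, Psmb1, Psmb2, Psmb7, Psmc3, Psmd3, Psmd7 and Psmg2 were not matched. The ETS word CCGGAAGT, a site bound by a large family of activators of housekeeping promoters, was in 23.1% of the proteasome windows (9 genes, among them Psma6, Psmc1 and Psmd6), against 11.2% of 6865 marked genes and 5.94% of all 16522 genes. The interferon response word, GAAA, any 2 bases and GAAA, was in 12.8% (Psmb3, Psmd4, Psmd9, Psme1 and Psmg4), against 4.43% of marked and 4.02% of all genes. These letters were not in the windows of Psmb8, Psmb9 and Psmb10, nor in those of Psme2. The NRF-1 word, GCGCA joined to TGCGC, was in 5.13%, against 2.71% and 1.53%.

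Of the other words, TATAAA alone was in a larger share of the proteasome windows than of those of marked genes. The core of the antioxidant response element, TGACNNNGC, to which the Nfe2l1 product binds, was in 15.4% (Psmb5, Psmb6, Psmc6, Psmd9, Psmd12 and Psme4), against 17.6% of marked and 15.02% of all genes. The CCAAT box was in 35.9%, against 43.6% and 42.1%, the kappa-B word (GGGA, any 4 bases and CC) in 23.1%, against 30.2% and 26.0%, and the E-box in 10.3%, against 12.3% and 9.18%. The STAT word was in 7.69% (Psmb8, Psmd2 and Psmg1), against 8.52% and 9.02%, and TATAAA in 10.3% (Psmb4, Psmb8, Psmd1 and Psmd6), against 8.13% and 14.3%. With 39 genes, 1 gene moves a share by a few points. A match of letters is a description and does not show that a factor binds there.

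**Figure D5:**
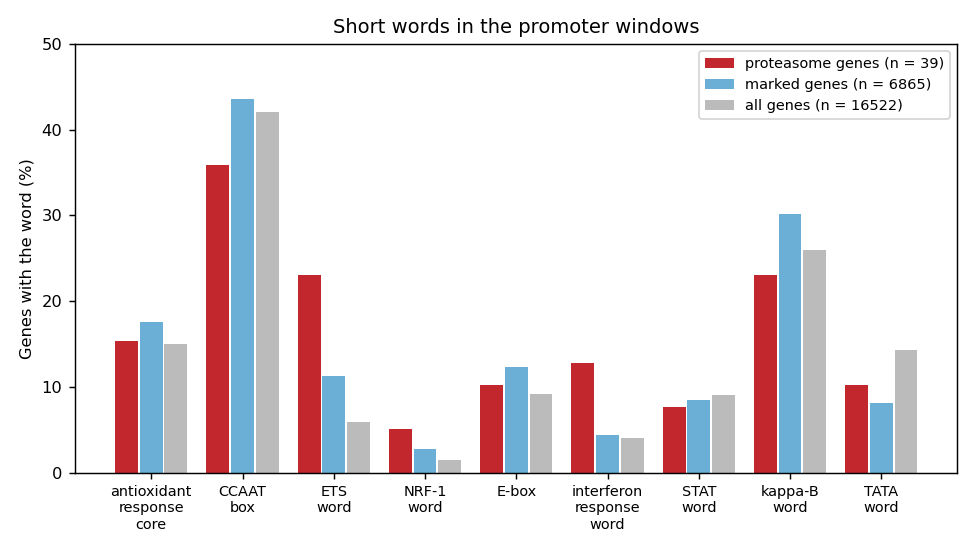
Share of genes in percent whose RefSeq promoter window holds each of the 9 words, for 39 proteasome genes (red), 6865 marked genes (blue) and all 16522 genes (grey). The red bar is the tallest for the ETS word (23.1%), the NRF-1 word (5.13%) and the interferon response word (12.8%), and lies below both other bars for the CCAAT box, the STAT word and the kappa-B word.

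The immunoproteasome windows were poorer in CpG than those of the regulatory, chaperone and standard core classes. The median ratio of observed to expected CpG was 0.523 for the immunoproteasome genes (0.523 for Psmb8, 0.5996 for Psmb9 and 0.192 for Psmb10), against 0.772 for regulatory, 0.631 for chaperone, 0.796 for standard core and 0.811 for marked genes and 0.631 for all genes. The tissue-restricted gene Psmb11 had a lower ratio of 0.165. A ratio of 0.6 was reached by 0 of 3 immunoproteasome, 15 of 18 regulatory, 4 of 6 chaperone and 9 of 11 standard core windows, and Psmb9 lay just under it.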

How the data were processed

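H3K27ac peak lists of 2 replicates of 1 group were analysed. The authors made a pseudoreplicated list for each replicate and 2 lists, replicated and pooled pseudoreplicated, from the alignments of both, per the README texts of the series. In each list the deposited fold of a peak is a linear ratio and its deposited q-value is given as −log10. Which aligner and peak caller were used, and the read depth, is not given in the sources used here. Folds are the authors' own values, were not scaled between lists by any recorded step, and were ranked only within a list, so they describe H3K27ac enrichment and not expression.

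Gene models came from GENCODE M21 (93513 starts, mitochondrial genes left out), whose genome, GRCm38 patch 6, is that of mm10, and positions count from 1. Lists were read with Python 3.11.15. Where several peaks met a promoter window, the one with the highest fold was used. Words and CpG ratios come from RefSeq promoter windows of the same build, in place of the planned 300 bases around the GENCODE 5′ end, and a gene with several windows counts once, with the window of the highest CpG ratio for composition. Printed stretches hold at most 30 annotated UTR bases. The interval rules were tested on simulated peaks.

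The genes chosen for description were Psmb5 to Psmb10, Psme1 and Psme2, and genes without a promoter peak in a replicate. To these were added the 3 highest and 3 lowest by fold of the standard core and regulatory classes. The 3 widest peaks and the genes with most distal peaks (6 are tied) were also included. Not every value is printed for each of them, and no promoter peak fold is given for Psmc1, Psmc4, Psmc6 or Psmd4. Others named were chosen after their values were seen. The members, classes and gene lists were chosen with earlier results of these data known. Of the cofactor names, 1 was not matched and is not used here. Alternatives were other windows, distances, thresholds and lists, each replicate alone, and classes without shared promoters.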

Additional observations from a re-analysis of the deposited data

How the results depend on the processing

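Depth is not known, so weak peaks limit what can be said, and Psmd11, Psmg2 and Psmb7 rest on such peaks. No paired analysis was possible because there is a single group. The 36 counts of marked genes under other windows, thresholds and lists stayed within 1.5 times those reported. This limit was wide, and with 14 of 14 standard core and 3 of 3 immunoproteasome genes marked these counts could not rise. Staying within it therefore says little about stability. Over all 47 proteasome genes they ran from 40 with the 5′ end alone to 45 in the replicated list. With the 14 genes that have a shared promoter left out, 30 of the remaining genes were marked. With the 5′ end alone, replicate 1 had a peak at 40 proteasome genes and at 8154 of all 21938 genes. Replicate 2 had one at 42 and at 8413. The matching shares of all genes are not given for the count of 40 over each replicate or for the count of 30. In all 17 comparisons of percentile or width under other settings, the immunoproteasome median was above the regulatory and standard core medians. These settings reuse largely the same genes and peaks, so the comparisons are not independent. Values that moved by more than 1 SD over the replicates are given below, and the cause was not tested.

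Percentile medians among promoter peaks alone were 92.9 for immunoproteasome, 56.4 for regulatory and 58.2 for standard core genes, and without shared promoters 90.5, 62.7 and 69.2. The setting without shared promoters leaves out Psmb9, so 90.5 is the median of Psmb8 and Psmb10 alone. In each replicate alone they were 93.8 and 94.2, 60.5 and 62.3, and 60.2 and 63.9. With Psme1 and Psme2 moved to the immunoproteasome class, the regulatory median was 62.8, and its width median 1018 bp. Width medians in each replicate alone were 1639 and 1946 bp for immunoproteasome, 895 and 940 bp for regulatory and 976.5 and 1208.5 bp for standard core genes. The regulatory width median was 1156 bp for the widest peak and 842.5 bp without shared promoters. Summed over all promoter peaks, a setting added after seeing the data, it was 1422 bp, and 1546 bp for the standard core. In that setting the median was 2033 bp for the immunoproteasome genes and 1766 bp for all marked genes.

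Mean distal peaks at immunoproteasome, regulatory and standard core genes were 0, 0.333 and 0.0714 within 10 kb (all genes 0.202, marked genes 0.398), 1.00, 2.48 and 2.64 within 100 kb (1.98 and 3.09), and 0, 0.429 and 0.429 over 2.5 kb from starts. They were 1.00, 0.810 and 0.714 in the replicated list, 0.333, 0.667 and 0.571 in replicate 1 alone and 0.667, 0.571 and 0.571 in replicate 2 alone, so the immunoproteasome mean was the highest in the replicated list and in replicate 2 alone. Counted from any start, also added after seeing the data, they were 0, 0.667 and 0.643. Over all proteasome genes the mean was 0.170 within 10 kb, below the 0.202 of all genes. It was 2.43 within 100 kb and 0.745 in the replicated list, above the 1.98 and 0.621 of all genes. In each of these settings it was below the mean of marked genes.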
